A study of Sus scrofa with 6 samples.

Results

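WNT11, FZD1, FZD4, YAP1 and AMOTL1 were followed in whole pig embryos at embryonic day 21. The group holds a Wnt ligand, a pair of frizzled receptors, the Hippo effector and its angiomotin partner, and its members were taken by symbol, with no threshold on measured values. All 5 symbols matched 1 Ensembl pig identifier each among the 1780 genes of the count table used here, and each had well over 10 reads in total, so all 5 were measured. Parthenotes (n = 3) grew in surrogate gilts from oocytes that had been activated by electric pulses without sperm, so that every chromosome was of maternal origin. Controls (n = 3) were untreated embryos of the same age. Both groups were of Landrace x Yorkshire x Duroc stock, and 1 library was made from the RNA of each whole embryo. How the controls were conceived, and whether embryos shared a dam or litter, is not described here. P-values thus cover the spread among these 6 embryos alone, and effects of conception or handling cannot be told apart from those of the missing paternal genome.

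Wnt proteins are secreted lipid-modified signals that bind frizzled receptors on the receiving cell. One branch of the pathway stabilises beta-catenin and switches on target genes, and another, to which WNT11 mainly belongs, steers cell movement and polarity during gastrulation and organ formation. The Hippo pathway is a kinase cascade that phosphorylates YAP1 and holds it in the cytoplasm. Unphosphorylated YAP1 enters the nucleus, where it drives growth genes together with TEAD factors, and angiomotins such as AMOTL1 bind YAP1 at cell junctions. Such control acts largely on proteins, which were not measured.

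Each library held 1193714 to 1484193 reads counted in the genes used here, and 604 of the 606 tested genes with a position in the annotation lie on chromosome 9. Levels are given as CPM, reads per 1000000 of those reads after TMM scaling, which takes most genes as not different between libraries. No level is set against that of another gene, because transcript lengths were not used here. Control 1 stood apart from its group: the chi-square of its counts per degree of freedom was 141 against control 2 and 143 against control 3, but 6.98 between control 2 and control 3. Among parthenotes this chi-square was 61.0 and 52.8 for parthenote 1 against parthenote 2 and parthenote 3, and 21.1 between parthenote 2 and parthenote 3. One gene without a symbol took 20.8% of the reads in control 1. It took 8.29% and 8.47% in control 2 and control 3, and 15.4% to 19.1% in parthenotes. This gene weighs in the chi-square, and its share there was not separated. Because control 1 had the largest of these chi-square values, each of the 5 genes is also given without it.

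None of the 5 genes passed the test between parthenotes and controls. By edgeR's quasi-likelihood test, adjusted by Benjamini-Hochberg over the whole table, 0 of the 5 had an adjusted p under 0.05, and 0 had an unadjusted p under 0.05. Adjusted p-values come from this edgeR test unless another tool is named. Among all 807 tested genes 5.20% were called (1.61% higher and 3.59% lower in parthenotes), and 21.7% had an unadjusted p under 0.05. DESeq2 and limma-voom also called 0 of the 5, with 0 and 1 at an unadjusted p under 0.05. The smallest log2 fold change in size among the 42 called genes was 0.35, or 1.27-fold. The estimates for WNT11, FZD1, YAP1 and AMOTL1 were all smaller than this, and that of FZD4 was larger.

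**Figure D1:**
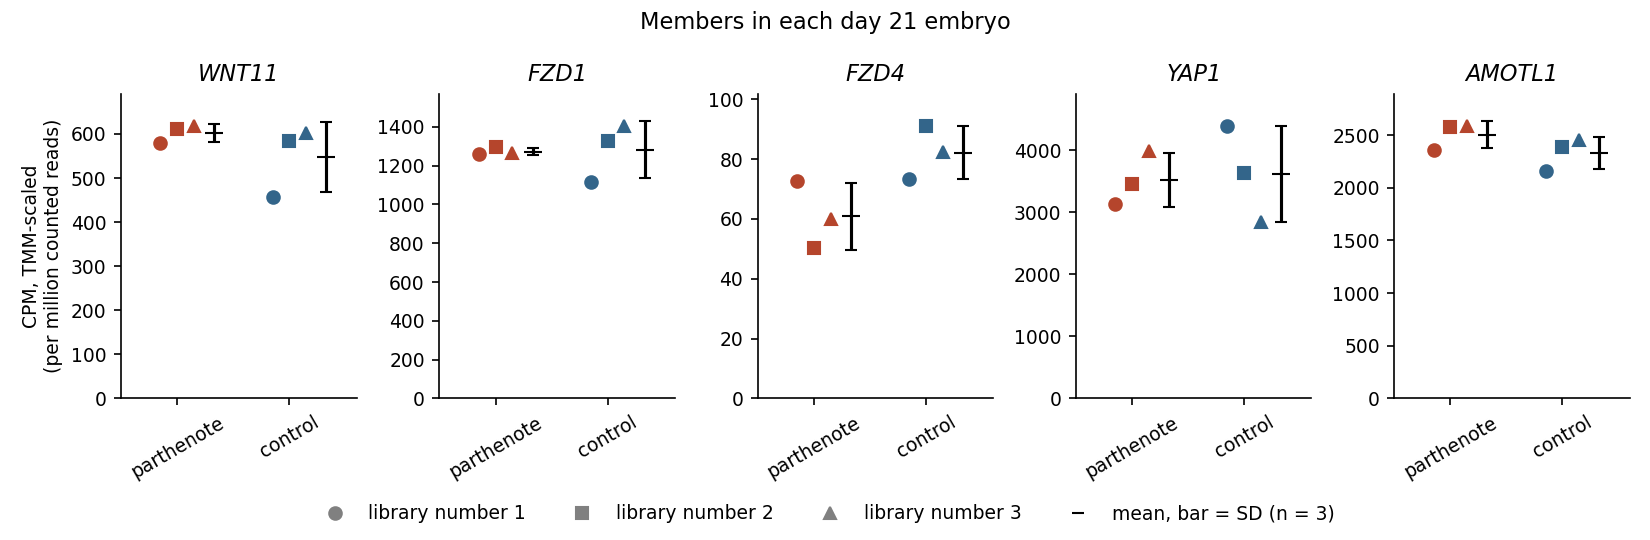
TMM-scaled CPM of WNT11, FZD1, FZD4, YAP1 and AMOTL1 in each embryo, with parthenotes left of controls in each panel, symbols for the library number, and the mean with its SD (n = 3 per group) in black. FZD4 is the only panel in which the groups do not overlap, by a narrow margin (highest parthenote 72.6 CPM, lowest control 73.3 CPM), and YAP1 has the widest spread among controls relative to its mean.

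WNT11, the ligand, is known in fish and frog embryos for its part in convergent extension, and in mouse for the branching of the kidney's collecting system. WNT11 (ENSSSCG00000022347) lies at 10413182 to 10435158 of chromosome 9 (Sscrofa11.1). The level of WNT11 was 579, 610 and 618 CPM in parthenote 1, 2 and 3, against 457, 585 and 603 CPM in control 1, 2 and 3. The groups overlapped, and control 1 was the lowest of the 6 libraries. The mean was 602 ± 20.6 CPM in parthenotes and 548 ± 79.6 CPM in controls (SD, n = 3 each). The log2 fold change was 0.14 ± 0.12 (SE), with a 95% interval of -0.15 to 0.42 and an adjusted p of 0.563. This interval runs from 0.904-fold to 1.33-fold, so larger changes in either direction lay outside it. Without control 1 the log2 fold change was 0.02. Whole embryos mix many tissues, and fewer cells of a type cannot be told apart from less RNA per cell.

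KCNJ1, a potassium channel gene of the kidney, fell in parthenotes, with a log2 fold change of -2.81, and passed in all 18 alternative settings described under processing. Its mean was 80.9 ± 11.7 CPM in parthenotes and 567 ± 26.7 CPM in controls (SD, n = 3 each). All 3 tested genes of the kidney list were called lower, beside 3.59% of all tested genes. The summed level of that list was 483 to 556 CPM in parthenotes and 1852 to 2182 CPM in controls. WNT11 is made at the tips of the ureteric bud in mouse, and the interval of its estimate held 0. The part of kidney tissue in the level of WNT11 was not tested.

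FZD1 is a widely expressed frizzled receptor that can signal through beta-catenin. FZD1 (ENSSSCG00000036436) lies at 71346994 to 71356488 of chromosome 9, a span that overlaps the annotated span of MTERF1, so some reads of this pair may not be assigned with certainty in a library that does not record strand. FZD1 is also close in sequence to FZD2 and FZD7, and the labels do not say how reads that fit several genes were counted. FZD1 stood at 1259, 1294 and 1264 CPM in parthenote 1, 2 and 3, against 1117, 1328 and 1404 CPM in control 1, 2 and 3. All 3 parthenotes lay inside the range of the controls. The mean was 1272 ± 18.7 CPM in parthenotes and 1283 ± 149 CPM in controls (SD, n = 3 each). The log2 fold change of FZD1 was -0.01 ± 0.10 (SE), with a 95% interval of -0.23 to 0.21 and an adjusted p of 0.967. The estimate was -0.10 without control 1, 0.01 without control 2, 0.06 without control 3, and 0.0097 with the authors' own scaling factors, so it lay on both sides of 0. MTERF1, a mitochondrial transcription termination factor, had a log2 fold change of 0.12 ± 0.18 (SE) and was not called either.

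FZD4, the other receptor, binds Wnt proteins and also norrin, and is known in human and mouse for the growth of retinal blood vessels. FZD4 (ENSSSCG00000014920) lies at 20714995 to 20721460 of chromosome 9, with no overlapping annotated gene. FZD4 was at 72.6, 50.3 and 59.9 CPM in parthenote 1, 2 and 3, against 73.3, 91.0 and 82.3 CPM in control 1, 2 and 3. The groups did not overlap, but parthenote 1 and control 1 were nearly equal. Groups that do not overlap were found for 28.0% of all tested genes, 14.3% with parthenotes lower and 13.8% with parthenotes higher, so 1 in 5 genes is no more than the background. The values rest on 95, 71 and 89 reads in parthenotes and on 93, 116 and 109 reads in controls, the fewest of the 5 genes.

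The mean level of FZD4 was 61.0 ± 11.2 CPM in parthenotes and 82.2 ± 8.87 CPM in controls (SD, n = 3 each). The log2 fold change was -0.43 ± 0.19 (SE), or 0.741-fold, with a 95% interval of -0.87 to 0.01. The unadjusted p was 0.0525 and the adjusted p 0.237 in edgeR's test, and limma-voom gave 0.0489 and 0.228. A change of this size was common, as 19.2% of tested genes had a larger one in either direction. The estimate stayed below 0 in all 18 alternative settings, from -0.57 without parthenote 1 to -0.31 without parthenote 2. It was -0.51 without control 1. The adjusted p of FZD4 was never under 0.138. Scaled by library totals alone, the groups overlapped, at 52.1 to 69.3 CPM in parthenotes and 66.6 to 97.2 CPM in controls.

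Endothelial genes lay on both sides of 0 beside FZD4. Of the 5 with counts here, 0 were called, with 2 above 0 and 3 below and a median log2 fold change of -0.01, against 0.02 over all tested genes. Their summed level was 6608 to 6752 CPM in parthenotes and 6561 to 6991 CPM in controls. The transcription factor gene ETS1, the most abundant of them, had a log2 fold change of -0.01 ± 0.09 (SE). The adhesion gene ESAM, named after its values were seen, had 328 ± 24.1 CPM in parthenotes and 440 ± 20.2 CPM in controls (SD, n = 3 each), or -0.42 on the log2 scale, with an adjusted p of 0.0677. ESAM passed in DESeq2 alone (adjusted p = 0.0141) of the 18 alternatives, whose range was 0.0141 to 1.00. The part of endothelial cells in the level of FZD4 was not tested.

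A ratio of reads within a library needs no scaling between libraries, and it was taken for both receptors. FZD4 had 0.0577, 0.0389 and 0.0474 reads per FZD1 read in parthenote 1, 2 and 3, against 0.0656, 0.0686 and 0.0586 in control 1, 2 and 3. All 3 parthenotes were lower than all 3 controls, by a small step between parthenote 1 and control 3. The log2 ratio differed by -0.44 (parthenote minus control), with means of -4.39 ± 0.28 in parthenotes and -3.96 ± 0.12 in controls (SD, n = 3 each). The exact two-sided permutation test gave p = 0.1, the smallest that 3 against 3 embryos allow, and 0.2 after adjustment over the 2 ratios. The design therefore could not bring this ratio past a threshold of 0.05. With FZD1 at a log2 fold change of -0.01, the ratio largely restates the difference in FZD4 and is not separate evidence.

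**Figure D2:**
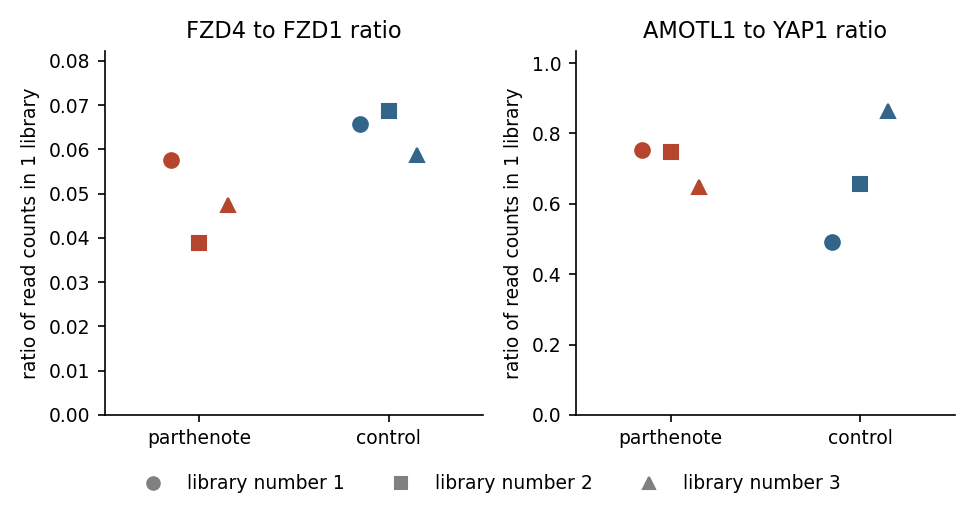
Reads of FZD4 per read of FZD1 (left) and of AMOTL1 per read of YAP1 (right) within each library, with parthenotes left of controls and symbols for the library number. The receptor ratio is 0.0389 to 0.0577 in parthenotes and 0.0586 to 0.0686 in controls, while the AMOTL1 to YAP1 ratios overlap.

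YAP1 is the transcriptional co-activator that the Hippo kinases restrain. YAP1 (ENSSSCG00000031429) lies at 32811629 to 32924926 of chromosome 9, and its span overlaps an annotated long non-coding RNA gene that was not analysed here. YAP1 was at 3130, 3450 and 3993 CPM in parthenote 1, 2 and 3, against 4391, 3639 and 2839 CPM in control 1, 2 and 3. The highest and the lowest of the 6 libraries were both controls. The mean was 3524 ± 436 CPM in parthenotes and 3623 ± 776 CPM in controls (SD, n = 3 each). The log2 fold change of YAP1 was -0.04 ± 0.16 (SE), with a 95% interval of -0.41 to 0.33 and an adjusted p of 0.923. It turned to 0.12 without control 1 and to 0.04 without parthenote 1, so no direction can be given.

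YAP1 varied more among controls than among parthenotes, as did WNT11, FZD1 and AMOTL1. The coefficient of variation of YAP1 was 12.4% in parthenotes and 21.4% in controls, a difference that was not tested. It was 3.43% and 14.5% for WNT11, 1.47% and 11.6% for FZD1, and 5.12% and 6.64% for AMOTL1. FZD4 went the other way, at 18.4% and 10.8%. The share of all tested genes that varied more among controls is not given here, so nothing is read from this count. The SD of the log2 CPM of YAP1 among controls was 0.32, and 19.6% of tested genes had a larger one. The values of YAP1 rest on 3760 to 5934 reads per library, so counting error is small beside them. In control 1, where YAP1 was highest, WNT11, FZD1 and AMOTL1 were each at their lowest of the 6 libraries. That library also stood apart from its group in the chi-square of counts, and the part of this in the levels was not tested.

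AMOTL1, the angiomotin family member, is a junction protein that binds YAP1. AMOTL1 (ENSSSCG00000014960) lies at 26811872 to 26978107 of chromosome 9 and also overlaps a long non-coding RNA gene that was not analysed here. AMOTL1 was at 2357, 2573 and 2584 CPM in parthenote 1, 2 and 3, against 2154, 2384 and 2449 CPM in control 1, 2 and 3. The groups overlapped, with parthenote 1 inside the range of the controls. The mean was 2505 ± 128 CPM in parthenotes and 2329 ± 155 CPM in controls (SD, n = 3 each). The log2 fold change of AMOTL1 was 0.10 ± 0.09 (SE), with a 95% interval of -0.10 to 0.31 and an adjusted p of 0.548. It stayed above 0 in all 18 alternative settings, at 0.05 (without control 1) to 0.15, and the adjusted p was never under 0.392. This was the tightest estimate of the 5, and a change above 1.24-fold in either direction lay outside its interval.

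Reads of AMOTL1 per read of YAP1 numbered 0.753, 0.746 and 0.647 in parthenote 1, 2 and 3, against 0.491, 0.655 and 0.863 in control 1, 2 and 3. The controls spanned a wider range than the parthenotes and enclosed them. The log2 ratio had a mean of -0.49 ± 0.12 in parthenotes and -0.62 ± 0.41 in controls (SD, n = 3 each), a difference of 0.13. The exact two-sided permutation test gave p = 0.8, both before and after adjustment over the 2 ratios. Without control 1 the difference was -0.075.

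Titles give both groups the same library numbers, but the labels do not state a pairing. Departures of embryos from their own group's mean, as described under processing, had an r of 0.365 for number 1 and 0.272 for number 2. For number 3 the r was 0.147, beside 0.145 for control 3 with parthenote 2, so its pairing was not set apart. Differences by number are therefore given as a description. WNT11 was higher in the parthenote in 3 of 3 numbered pairs, by 0.34, 0.06 and 0.03 on the log2 scale. AMOTL1 was also higher in 3 of 3, by 0.13, 0.11 and 0.08. FZD4 was lower in 3 of 3, with differences of -0.01, -0.85 and -0.46. FZD1 and YAP1 were each higher in 1 of 3. The share of all tested genes with the same direction in 3 of 3 pairs is not given here, so nothing is read from these counts. With the library number as a block, 0 of the 5 genes passed in edgeR, and the adjusted p of WNT11, FZD4 and AMOTL1 was 0.443, 0.259 and 0.444.

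Across the 6 libraries, the levels of WNT11 and AMOTL1 followed each other. Of 10 pairs among the 5 genes, theirs was the only one with an adjusted p under 0.05: Pearson's r of log2 CPM was 0.92 and Spearman's rho 1.00, with an exact permutation p of 0.00278 for each (adjusted p = 0.0278), the smallest that 6 libraries can give. The permutation shuffled all 6 libraries without regard to group, and both genes share the scaling of each library. This p therefore cannot tell a link between the genes from a shift of whole libraries. Without the 2 libraries farthest from the median of WNT11, r was 0.94. The rank order was the same in both genes, with control 1 lowest and parthenote 3 highest. Likeness of this kind was not rare, because 4.22% of the 806 tested genes other than WNT11 followed WNT11 as closely or more closely. A library number holds only 2 embryos, which is too few for an r within it.

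FZD1 and YAP1 had an r of -0.80 (exact permutation p = 0.05, adjusted p = 0.25) and a rho of -0.60 (p = 0.242, adjusted p = 0.593). Without the 2 libraries farthest from the median of FZD1, r was 0.16. Leaving out extremes of FZD1 narrows its range and can weaken r by itself, so this cannot show what the relation rested on. YAP1 and AMOTL1 had an r of -0.35 (exact permutation p = 0.508, adjusted p = 0.706) and a rho of -0.14 (p = 0.803, adjusted p = 0.892). Without the 2 libraries farthest from the median of YAP1, r was 0.61.

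The genes most like each of the 5 over the 6 libraries were found by the highest Pearson's r of log2 CPM among tested genes with a symbol, as a description without a test. All points share the 6 libraries and their scaling. WNT11 was followed most closely by DENND5A and FAM168A, with r of 0.996 and 0.992. FZD1 was most like PPFIA4, THSD7A and TNFSF4, with r of 0.964, 0.958 and 0.955. FZD4 was most like SMPD1, P2RY2 and RASSF5, with r of 0.995, 0.994 and 0.977. Their log2 fold changes were -0.32, -0.56 and -0.30, without a call for any of them. Genes chosen for a close match to FZD4 share its direction by that choice, so nothing is read from it. YAP1 had the least close matches, PON1, FAM237B and FAM76B, with r of 0.924, 0.923 and 0.918. AMOTL1 was most like CEP126, CACNA1E and CEP295, with r of 0.994, 0.976 and 0.974.

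Beyond the 5 genes, lists of Wnt and Hippo genes placed 12 further genes in the table, of 225 listed, and 11 were tested. Of these 11, 1 rose and 0 fell, beside 1.61% called higher and 3.59% called lower among all tested genes, so nothing is read from this count. The estimates of 8 lay above 0 and those of 3 below, and 2 of the 8 turned below 0 with 1 library left out: BCL9L was at -0.067 without control 1, and SFRP4 at -0.050 without parthenote 3. Among the 3 below 0, DCHS1 lay above 0 in 7 of the 18 alternatives, which ran from -0.183 to 0.099. The median log2 fold change of the 11 genes was 0.10, against 0.02 over all tested genes.

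NRCAM, a neuronal adhesion molecule that is a beta-catenin target in human colon cancer cells, was the gene that rose. It had 800, 934 and 1027 CPM in parthenote 1, 2 and 3, against 516, 599 and 655 CPM in control 1, 2 and 3. The groups did not overlap. The log2 fold change of NRCAM was 0.64 ± 0.13 (SE), and its adjusted p was 0.0213. Leaving out control 2, parthenote 2 or parthenote 3 ended this call, with log2 fold changes of 0.54 to 0.65 and adjusted p-values of 0.0710 to 0.0843. Scaling by library totals alone also ended it, at 0.0948. NRCAM also stands in the list of neural genes, of which 3 of 5 rose, and the summed level of that list was 9635 to 11416 CPM in parthenotes and 7150 to 8400 CPM in controls. The part of neural tissue in the level of NRCAM was not tested. MMP7, the other listed Wnt target in the table, had 6, 3 and 1 reads in parthenotes and 0, 1 and 1 in controls, too few to test.

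The secreted inhibitors and the signal transduction genes did not pass. SOSTDC1, which binds Wnt co-receptors and BMPs, had 325, 448 and 333 CPM in parthenote 1, 2 and 3, against 313, 321 and 316 CPM in control 1, 2 and 3. All 3 parthenotes lay above the controls, and parthenote 2 lay far above the other two. Its log2 fold change was 0.22 ± 0.14 (SE; adjusted p = 0.415), and 0.057 without parthenote 2. SFRP4, a decoy with a frizzled-like domain, had a log2 fold change of 0.16 ± 0.25 on 42 to 77 reads per library. BCL9L, a co-activator of beta-catenin, had a value of 0.10 ± 0.15, CDK14, a kinase of the Wnt co-receptor LRP6, one of 0.04 ± 0.08, and PPP2R1B, a scaffold subunit of protein phosphatase 2A, one of -0.18 ± 0.11.

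Regulators on the Hippo side did not pass either. PTPN14, a phosphatase that restrains YAP1 and is also listed among YAP1 targets, had 819, 1039 and 881 CPM in parthenote 1, 2 and 3, against 641, 720 and 797 CPM in control 1, 2 and 3. The groups did not overlap. Its log2 fold change was 0.35 ± 0.12 (SE), with an unadjusted p of 0.0182 and an adjusted p of 0.144 in edgeR's test. DCHS1, a large cadherin upstream of the pathway, had a log2 fold change of -0.01 ± 0.17, and RASSF5, a binding partner of the kinases STK3 and STK4, one of -0.30 ± 0.14 (adjusted p = 0.256).

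The target genes of YAP1 in the table are NUAK2, a kinase gene, BIRC3, an inhibitor of apoptosis, and PTPN14. NUAK2 had 359, 332 and 338 CPM in parthenote 1, 2 and 3, against 303, 277 and 276 CPM in control 1, 2 and 3. The groups did not overlap. Its log2 fold change was 0.26 ± 0.11 (SE; unadjusted p = 0.0415, adjusted p = 0.208 in edgeR's test). BIRC3 had a log2 fold change of 0.09 ± 0.08. The estimates of all 3 targets lay above 0 and none was called. Among all tested genes, 13.8% had groups that did not overlap with parthenotes higher, and 21.7% had an unadjusted p under 0.05 in edgeR's test. With only 3 targets, nothing is read from their direction.

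**Figure D3:**
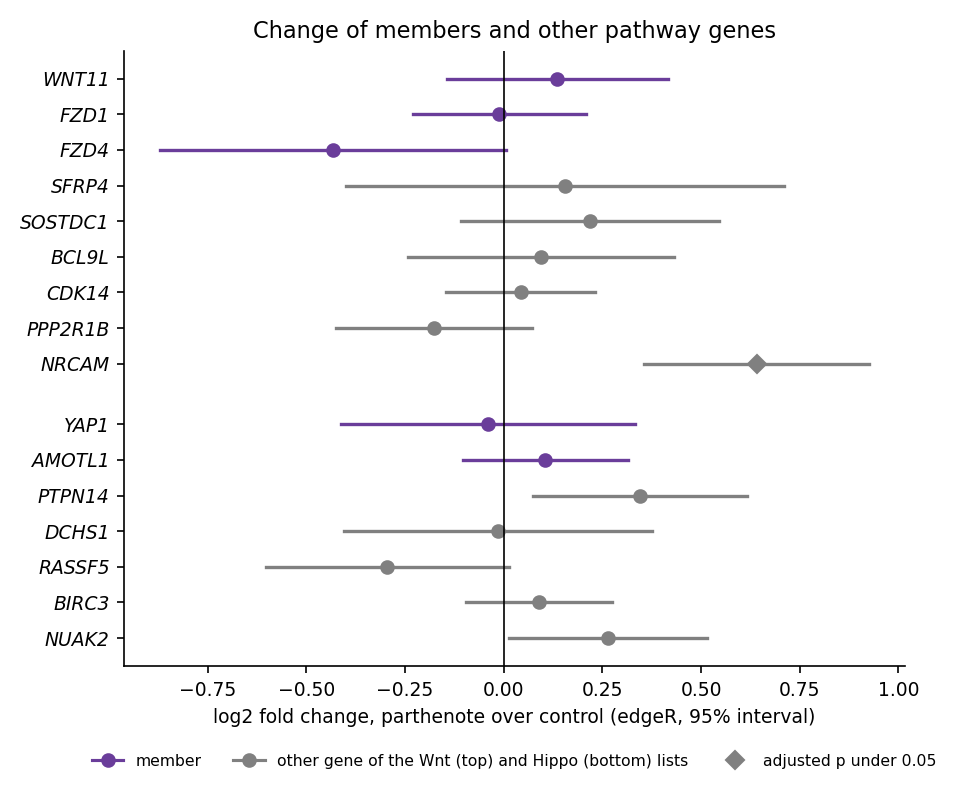
Log2 fold change of parthenotes over controls with its 95% interval from edgeR, for WNT11, FZD1, FZD4, YAP1 and AMOTL1 (purple) and the 11 other tested genes of the Wnt lists (top) and Hippo lists (bottom, grey). NRCAM, at 0.64, is the only gene drawn with a diamond for an adjusted p under 0.05.

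Neighbours on the chromosome gave no call. The nearest tested gene with a symbol on each side was taken for each of the 5, which gave 10 neighbours and 0 calls. WNT11 lies between UVRAG and THAP12, with log2 fold changes of 0.06 and 0.05. FZD1 lies between CDK14, 36.7 kb away, and AKAP9, whose log2 fold change was 0.06. FZD4 lies between PRSS23 and TMEM135, with -0.12 ± 0.10 and -0.19 ± 0.12 (SE). YAP1 lies between CEP126 and BIRC3, at 0.11 and 0.09. AMOTL1 lies between CWC15, at -0.02, and PIWIL4, a gene of the piRNA pathway with 20.7 ± 1.44 CPM in parthenotes and 15.04 ± 2.69 CPM in controls (SD, n = 3 each), and a log2 fold change of 0.46 ± 0.29. BIRC3 and CDK14 are thus both neighbours and pathway genes.

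Markers of other tissues moved with the group in places, and were not tested for their part in the levels above. The red cell gene HBB stood at 102 to 575 CPM in parthenotes and 873 to 2065 CPM in controls. Its log2 fold change was -2.30 ± 0.78 (SE) at an adjusted p of 0.189, but HBB was called by DESeq2 (-2.31, adjusted p = 0.0426) and limma-voom (-2.61, adjusted p = 0.0293) on all 6 libraries, and by edgeR without parthenote 2 (-3.37, adjusted p = 0.00550). Over the 18 alternatives its adjusted p ran from 0.00550 to 1.00. Of 3 liver and yolk sac genes the apolipoprotein gene APOC3 rose, by 1.08 on the log2 scale. Leaving out any 1 control ended that call, with log2 fold changes of 0.98 to 1.15 (adjusted p 0.0567 to 0.0730). In the neural list FEZ1 and MAP6 rose besides NRCAM, by 0.49 and 0.55. FEZ1 was not called without control 2 or control 3 (0.46 to 0.47, adjusted p 0.0699 to 0.0761), and MAP6 was not called without control 3 (adjusted p = 0.0505) or with scaling by library totals alone (adjusted p = 0.0515). Of 2 extraembryonic genes PLET1 fell, with a log2 fold change of -2.70. PLET1 was not called without control 2, control 3, parthenote 1 or parthenote 3, at -2.67 to -2.30 (adjusted p 0.0588 to 0.118), and DESeq2 gave it no adjusted p. The other extraembryonic gene, the prostaglandin synthase gene PTGS2, had 122, 498 and 188 CPM in parthenote 1, 2 and 3, against 108, 94.9 and 79.3 CPM in control 1, 2 and 3. The groups did not overlap, and parthenote 2 lay far above the rest. PTGS2 had a log2 fold change of 1.52 ± 0.50 (SE; adjusted p = 0.144), 0.73 without parthenote 2, and 1.87 and called without parthenote 1 (adjusted p = 0.0292). The summed level of both extraembryonic genes was 123 to 501 CPM in parthenotes and 92.9 to 117 CPM in controls. Nearly all of this sum was PTGS2, so it does not show the fall of PLET1. PLET1 stood at 0.673 to 3.54 CPM in parthenotes and 9.46 to 15.7 CPM in controls. The muscle regulator MYOG had a log2 fold change of 0.15. Of 3 limb genes 0 were called, and MEOX2, the most abundant, had 0.18. The estimates of all 3 limb genes lay above 0, with a median of 0.34. Groups did not overlap in 2 of the 3, beside 28.0% of all tested genes. In edgeR's test 2 of the 3 had an unadjusted p under 0.05, beside 21.7% of all tested genes. The uterine marker PGR had 0 reads in each parthenote and too few reads in controls to test.

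**Figure D4:**
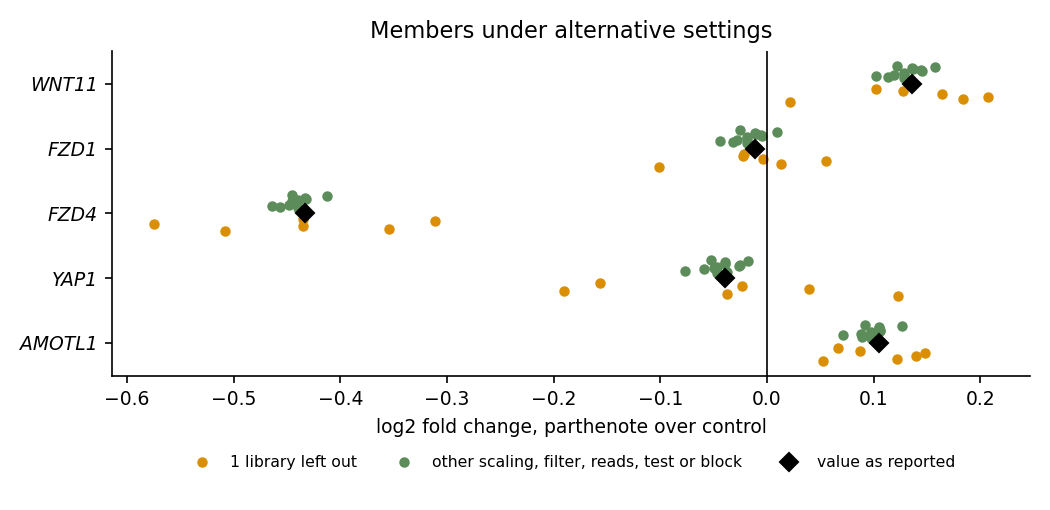
Log2 fold change of parthenotes over controls for the 5 genes as reported (black diamond), in 6 fits with 1 library left out (orange), and under 12 other settings of scaling, filter, read source, test or block (green). FZD4 stays between -0.57 and -0.31 and AMOTL1 between 0.05 and 0.15, while FZD1 and YAP1 lie on both sides of 0.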

How the data were processed

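RNA of 6 whole embryos was made into libraries with a TruSeq v2 kit, which does not mark strand, per the labels' protocols. HISAT2 2.1.0, SAMtools 1.9 and the build Sscrofa11.1 are named in the submitters' processing notes, while neither labels nor notes name a counting tool or an annotation. Raw read counts for 1780 genes, without normalization, stand in the table that the authors deposited. Each control column was matched to its sample through that sample's own file, which has the same column name. The normalized signal that the authors deposited per sample is whole reads times 1 factor, and 100% of its values came within 0.01 of a whole read. It covers 1190 genes. Its reads were not all those of the raw table, as they differed in 177 genes (control 2) to 277 genes (parthenote 2) per library. Ensembl identifiers were named from a symbol table, and positions come from RefSeq's table of Sscrofa11.1, matched by symbol.

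The test of counts was edgeR 4.0.16 in R 4.3.3: filterByExpr (minimum count 10, minimum total 15; 807 genes kept), TMM, a robust quasi-likelihood fit of group, and Benjamini-Hochberg adjustment at 0.05. SE and 95% intervals come from that fit, which was first tried on simulated counts. Ratios used a pseudocount of 0.5. Libraries of a group all differed by more than sampling noise (chi-square per degree of freedom 6.98 to 143), so each was kept as its own sample. Same-numbered embryos correlated at 0.365, 0.272 and 0.147 in their deviations from the group means over the tested genes, all above 0.1, while pairs with unlike numbers correlated at -0.298 to 0.145, so the third pair barely stood out. The number was therefore treated as a pairing in an alternative fit; that pairing comes from the data, not from the labels.

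The 18 alternatives were scaling by library totals, by upper quartiles or by DESeq2's size factors, no filter, a total of 10 counts, DESeq2 1.42.0, limma-voom (limma 3.58.1), the block, each library left out, reads recovered from the normalized signal (42 genes called), and glmTreat against a 1.5-fold change, and, added after seeing the data, the authors' factors and a fit that dropped the most abundant gene. The 5 genes and all lists were chosen with earlier results of these data known. Genes are named as called or abundant list members, nearest tested neighbours, or the 3 most alike of each of the 5; ESAM and MTERF1 were added after their values were seen. A few further genes under these rules are not reported here.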

Additional observations from a re-analysis of the deposited data

How the results depend on the processing

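The 5 genes stayed without a call in all 18 alternatives each, and WNT11, FZD4 and AMOTL1 kept their direction in all of them. FZD1 turned positive with the authors' scaling factors (0.0097), and with 1 library left out its log2 fold change ran from -0.10 to 0.055. With 1 library left out YAP1 ran from -0.19 to 0.12, and the log2 ratio of AMOTL1 to YAP1 from -0.075 to 0.33. The Wnt and Hippo lists held 1 called gene, which became 0 with library totals only and with glmTreat, and 0 to 1 with 1 library left out. Of all tested genes 42 were called, against 68 in DESeq2, 13 with glmTreat, and 17 (without control 2) to 55 (without parthenote 1) with 1 library left out; there were 18 calls without control 3, 26 without parthenote 2 and 22 without parthenote 3. The stricter null of glmTreat lowers its count by construction; for the others the cause was not tested. Under library totals only, 5 genes were called higher and 27 lower, in place of 13 and 29. The replicate block gave 55 calls, which included 41 of the 42. With this block the log2 ratio of FZD4 to FZD1 was -0.44. Its exact permutation p was 0.25, the smallest that 3 pairs allow. The block ended no call named here. FZD4 had the fewest reads of the 5, at 71 to 116 per library.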
